A study of Homo sapiens with 24 samples.

Results

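Aminoacyl-tRNA synthetases were described here through the transcripts of 36 genes, picked by gene symbol out of the 58884 genes in each of the deposited expression tables. Of these, 18 encode cytosolic enzymes, 16 encode mitochondrial enzymes, and GARS and KARS each supply both compartments from a single gene and were grouped with the cytosolic ones, which made 20. The symbols are the older ones that the tables use, such as VARS for the gene now named VARS1. All 36 genes were listed in both tables, and all passed the filter, for which 2 or more libraries had to reach 0.5 TPM (a transcript's share of its library, corrected for transcript length). The rule for membership used symbols and no measured value.

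The libraries came from HEK293T, a human embryonic kidney cell line. The first table held 2 untreated wild-type (WT) libraries and 2 untreated libraries labelled KO, a line made from them by disrupting endogenous SETD2. SETD2 is the methyltransferase that places trimethylation on lysine 36 of histone H3. In the second table there were 2 untreated libraries labelled KO, 2 libraries of KO cells transfected with SETD2 FL, the full-length protein ending at residue 2564, and 2 of KO cells transfected with SETD2 C, which spans residues 1404 to 2564 and which the labels call N3. Both constructs were tagged and driven by a CMV promoter, and RNA was isolated 72 h after transfection. None of the RNA libraries used here carried an empty vector, so transfection and construct cannot be told apart in a comparison with KO, whereas SETD2 C and SETD2 FL were both transfected. Nothing in the labels says that the libraries of a group came from separate cultures, so p-values measure the spread between these libraries, which may be technical.

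TPM sums to the same total in every library, so sequencing depth is unknown. Genes above 0 numbered 24306 to 27104 per library, and libraries of 1 group correlated at 0.993 to 0.995 across genes, which are not independent replicates. SETD2 stood at a TPM of 12.6 and 14.8 in the libraries labelled WT, 16.2 and 16.3 in those labelled KO in the first table, and 12.0 and 12.2 in those labelled KO in the second. In the first table, the only one with WT libraries, those labelled KO thus held no less of the transcript than WT. Within these RNA values the labels alone give the direction of each WT and KO comparison. The paper reports that its KO cells have both SETD2 alleles disrupted and that western blots of them lacked the histone mark that SETD2 places. With SETD2 FL the SETD2 TPM was 439 and 422, and with SETD2 C, which covers only part of the coding sequence, 1329 and 1264. In the first table, transcripts of the mitochondrial genome summed to 231804 TPM in the first WT library and to between 119876 and 140783 in the other 3, so the first WT library stood apart. Of the markers checked for HEK293T, VIM was at 444 to 926 TPM and PAX2 at 0.99 to 2.21, and the 9 markers of blood, liver, fibroblasts and endothelium together made up 9.00 to 16.5 TPM, with COL1A1 at 6.43 to 12.1 and APOB at 0 in all 10 libraries.

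Each synthetase joins 1 amino acid to its matching tRNAs and so sets how the genetic code is read at the ribosome. Human cells keep separate nuclear genes for most of the mitochondrial enzymes, marked by a 2 at the end of the symbol, which charge the tRNAs encoded by the mitochondrial genome. In the cytosol, 8 of the enzymes, among them those of EPRS, IARS, LARS, MARS, QARS, RARS and KARS, sit in the multisynthetase complex around the scaffold proteins of AIMP1, AIMP2 and EEF1E1, and the others act outside it. All synthetases fall into class I or class II by the fold of their catalytic domain, and EPRS, a fusion of a class I and a class II enzyme, belongs to both. Many cytosolic synthetase genes are textbook targets of ATF4, the transcription factor of the amino acid response, which binds the C/EBP-ATF response element.

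Because that element is the best known shared regulatory sequence of the family, promoters from RefSeq (GRCh38.p14, 250 bases before to 50 after each start site) were searched for TGATGNAA on both strands. Of the 36 genes, 30 had an entry, with 39 start sites. The letters occurred for 8 of the 30 (26.7%), against 4.46% of the 27305 genes in the promoter table. They were found for 7 of 16 cytosolic genes (AARS, CARS, GARS, IARS, MARS, NARS and TARS) and for YARS2, 1 of 14 mitochondrial genes. The 30-base windows around the matches are given here because the values of these genes are set against the other members further on. Capitals mark the match, each window is written 5′ to 3′ on the strand of its gene, and positions count from 0 at the start site.
AARS, chr16:70289675-70289704, minus strand, match from -187 to -180: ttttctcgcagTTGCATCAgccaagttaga
CARS, chr11:3057407-3057436, minus strand, match from -2 to 5: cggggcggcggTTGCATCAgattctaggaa
GARS, chr7:30594834-30594863, plus strand, match from -33 to -26: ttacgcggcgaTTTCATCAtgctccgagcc
IARS, chr9:92293692-92293721, minus strand, match from -13 to -6: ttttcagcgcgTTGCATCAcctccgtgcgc
MARS, chr12:57488053-57488082, plus strand, match from -4 to 3: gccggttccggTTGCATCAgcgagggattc
NARS, chr18:57621804-57621833, minus strand, match from 14 to 21: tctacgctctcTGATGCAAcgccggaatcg
TARS, chr5:33440956-33440985, plus strand, match from 2 to 9: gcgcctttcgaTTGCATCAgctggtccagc
YARS2, chr12:32756076-32756105, minus strand, match from -197 to -190: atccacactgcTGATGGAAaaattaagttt
Of these, 5 of the cytosolic genes (AARS, CARS, IARS, MARS and TARS) held the same 8 letters, TTGCATCA, on their own strand, and NARS held them on the opposite strand. A match is a description of letters and not a measured binding site.

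Other motifs were searched in the same promoters. The ETS core CCGGAAGT occurred for 8 of the 30 members and 4.95% of all genes, the NRF1 site GCGCATGCG for MARS2 alone against 2.34%, the E-box CACGTG for CARS2, EARS2, IARS and MARS2 against 8.77%, and the cyclic AMP response element TGACGTCA for none of the 30 against 2.25%. Members with the ETS core were CARS, EARS2, HARS, HARS2, NARS, PARS2, TARS and WARS. HARS and HARS2, the cytosolic and mitochondrial histidine enzymes, are transcribed away from each other from start sites with 84 bases between them on chromosome 5, and both ETS matches lie between those starts. Their windows, with the match in capitals, are shown because these neighbours had scaled values of opposite sign with SETD2 C against KO, neither of them called. On the strand of HARS2 they read as follows.
HARS2, chr5:140691361-140691390, plus strand, match from -83 to -76: cagcaaggatgACTTCCGGctatcgagtcg
HARS2, chr5:140691436-140691465, plus strand, match from -8 to -1: tccggctcctcCCGGAAGTgccgaagctgg

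The synthetases covered a wide range of transcript levels, and cytosolic members were mostly the higher ones. Levels are given as scaled TPM, which is TPM divided by a factor for each library that aligns the typical gene between libraries of a table. In the libraries labelled KO of the second table, the cytosolic members had a median of 102 scaled TPM and ran from 23.04 for FARSB, the beta subunit of the phenylalanine enzyme, to 256 for YARS, the tyrosine enzyme. The mitochondrial members had a median of 24.8 and ran from 7.19 for FARS2 to 99.0 for IARS2, the mitochondrial isoleucine enzyme (98.8 and 99.2), the only one of the 16 above the level of LARS (93.4 in both KO libraries). After YARS (262 and 251.1) came QARS (245 and 238) and SARS (235 and 231), which charge glutamine and serine tRNAs, and the values of these neighbours lay apart from each other. KARS (178 and 170) and TARS (172 and 176) overlapped.

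**Figure D1:**
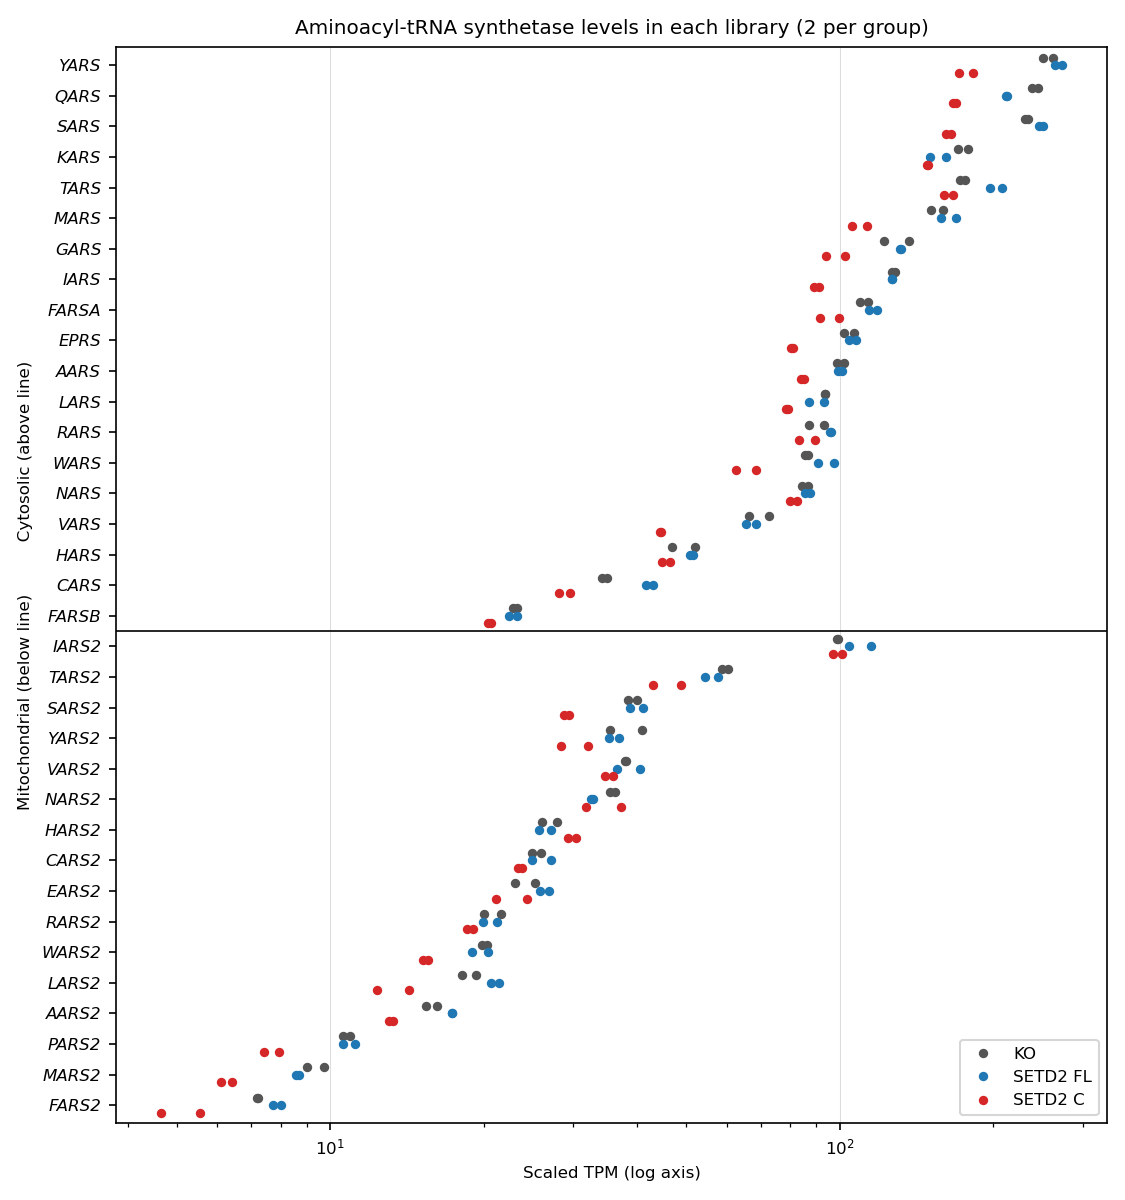
Scaled TPM (log axis) of 35 synthetase genes in the 6 libraries of the second table, 1 point per library, with cytosolic genes above the line and mitochondrial genes below it, each ordered by the mean in KO. The SETD2 C points lie to the left of both KO points for 30 genes and to the right for HARS2 alone.

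In the first table the order was led by TARS, the threonine enzyme, at 402 and 386 scaled TPM in WT and 396 and 421 in KO, followed by YARS at 324 and 363 in WT and 326 and 345 in KO. NARS, the asparagine enzyme, was at 208 and 244 in KO of the first table and at 86.5 and 84.2 in KO of the second. The tables were normalized separately, so these levels are set side by side without a test. FARSB was the lowest cytosolic member in every group, and the lowest mitochondrial member was MARS2 in the first table and FARS2 in the second.

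Most synthetase transcripts were lower with SETD2 C. Against KO, 23 of the 36 members were lower and 0 higher at an adjusted p of at most 0.05 in limma with Benjamini-Hochberg adjustment over 15933 genes, where 15.1% of all genes tested were lower and 21.1% higher. Among protein-coding genes within the members' range of mean level (8563 genes), 22.1% were lower and 16.4% higher. The decreases were moderate. The median log2 fold change of the members was -0.26, against 0.05 for all genes tested and -0.03 for the protein-coding genes in their range, and no member changed 2-fold. Both SETD2 C libraries lay below both KO libraries for 30 members, where 30.8% of all genes did so, and above them for HARS2 only, where 40.5% did so. With 2 libraries against 2, an exact permutation test of a single gene cannot go below p = 0.333.

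Summed over all 36 genes, the synthetases stood at 2967 and 2873 scaled TPM in KO, 2948 and 2984 in SETD2 FL cells, and 2345 and 2367 in SETD2 C cells. The 20 cytosolic members summed to 2474 and 2388 in KO, and to 2441 and 2496 (SETD2 FL) and 1919 and 1933 (SETD2 C) after transfection. For the 16 mitochondrial members the sums were 493 and 485 in KO, 507 and 489 in SETD2 FL cells and 425 and 434 in SETD2 C cells. Both sums were lower in each SETD2 C library than in any other library of the table. In TPM as deposited, the mitochondrial sums nearly met, at 476.18 and 464.01 in KO, 484.97 and 486.01 in SETD2 FL cells, and 452.16 and 463.54 in SETD2 C cells. The cytosolic sums were then 2391 and 2286 in KO, 2334 and 2482 in SETD2 FL cells, and 2040 and 2066 in SETD2 C cells. The ratio of the cytosolic to the mitochondrial sum, which does not depend on scaling, was 5.02 and 4.93 in KO, 4.81 and 5.11 in SETD2 FL cells, and 4.51 and 4.46 in SETD2 C cells. Sums weigh the most abundant genes most. By member, the median log2 fold change of SETD2 C against KO was -0.25 for the cytosolic and -0.29 for the mitochondrial genes. Against SETD2 FL these medians were -0.32 and -0.27.

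**Figure D2:**
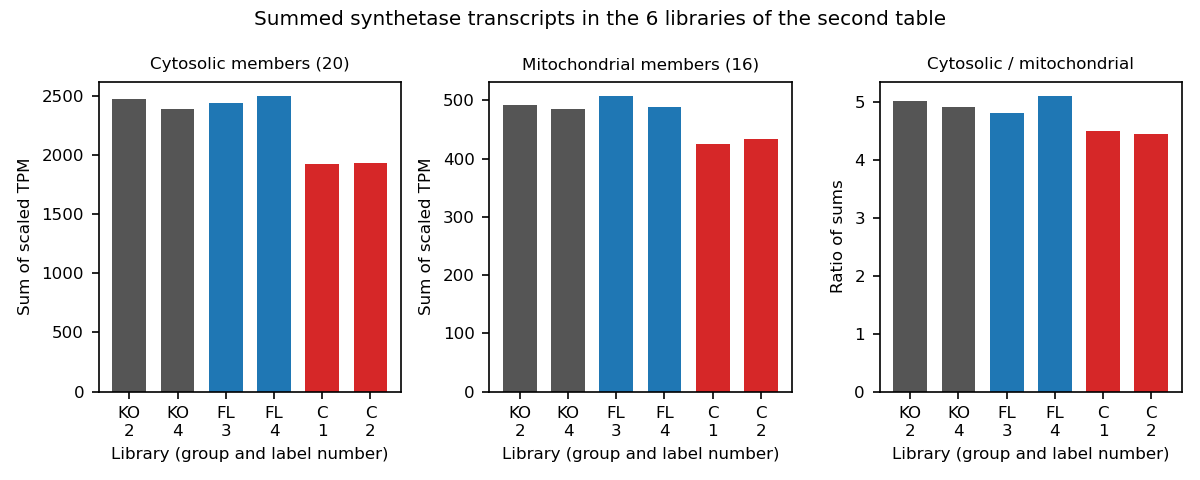
Summed scaled TPM of the 20 cytosolic and the 16 mitochondrial synthetases, and the ratio of the sums, with 1 bar for each of the 6 libraries of the second table, named by group and label number. The SETD2 C bars are the lowest in each panel, at 1919 and 1933 for the cytosolic sum and at ratios of 4.51 and 4.46.

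The count depended on how libraries were scaled. TPM as deposited gave 16 members lower and 1 higher (HARS2) and a median of -0.11, while the median of all genes moved from 0.05 to 0.18. In that setting 7.01% of all genes tested were lower, in place of 15.1%, and 5509 genes were higher, in place of 3359. The members' median lay below that of all genes on both scales. Rescaling after SETD2 and the genes of the mitochondrial genome were taken out also gave 16 lower and 1 higher, and quantile normalization gave 21 lower and 0 higher. Of all genes tested, 9.2% were lower and 4581 genes higher with the rescaling. With quantile normalization 17.5% were lower and 2457 genes higher. Transcripts of the mitochondrial genome summed to 70411 and 62297 TPM in KO, 109506 and 77922 in SETD2 FL cells, and 29302 and 33691 in SETD2 C cells. The rescaling that leaves these genes out is the one just given. In bulk RNA, fewer cells with a transcript and less transcript per cell cannot be told apart.

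Within the multisynthetase complex, 6 of the 8 enzymes fell against KO, where 15.1% of all genes tested were lower and 21.1% higher. QARS (chromosome 3, 49095932 to 49105130, minus strand), which charges glutamine tRNA, was at 245 and 238 scaled TPM in KO, 213 and 212 in SETD2 FL cells and 169 and 167 in SETD2 C cells. All 3 groups were apart for QARS, with SETD2 C lowest. Its log2 fold change against KO was -0.52 (SE 0.05, adjusted p = 0.000311). IARS, the isoleucine enzyme on chromosome 9 (92210207 to 92293854, minus strand), had 127 and 128 in KO, 126 and 126.5 in SETD2 FL cells and 91.1 and 88.9 in SETD2 C cells. The KO and SETD2 FL values of IARS nearly coincided and the SETD2 C values lay below them, a log2 fold change of -0.50 (SE 0.05, adjusted p = 0.000398).

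MARS, the methionine enzyme needed for initiation as well as elongation, stood at 160 and 151 in KO, 169 and 158 in SETD2 FL cells and 113 and 106 in SETD2 C cells. The SETD2 C values were the lowest and the other groups overlapped (log2 fold change against KO -0.50, SE 0.06, adjusted p = 0.001). MARS lies on chromosome 12 (57475445 to 57517569, plus strand) and shares 982 bases with DDIT3 on the opposite strand. DDIT3 had 21.7 and 18.5 in KO and 52.7 and 49.5 with SETD2 C, the opposite direction. Whether counting used the strand is not given in the sources used here, so reads in the shared stretch cannot be assigned with certainty.

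The other enzymes of the complex changed less. EPRS, the fused enzyme for glutamate and proline, had 107 and 102 in KO and 80.2 and 80.8 with SETD2 C (log2 fold change -0.37, adjusted p = 0.0016). LARS (leucine) and KARS (lysine) were called lower, at log2 fold changes of -0.24 and -0.23. Those calls were lost without scaling, where LARS was at -0.10 and KARS at -0.08. RARS (arginine) was not called. It had 93.3 and 87.2 in KO and 83.3 and 89.3 with SETD2 C, and its groups overlapped. The scaffold genes were at log2 fold changes of 0.07 for AIMP1, -0.50 for AIMP2 and -0.08 for EEF1E1, and only AIMP2 was called (46.7 and 43.9 in KO, 34.9 and 29.2 with SETD2 C, adjusted p = 0.0052). Without scaling, 1 scaffold gene was called higher and 1 lower, with a median of 0.07, and the rescaling also gave 1 in each direction.

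Of the 12 cytosolic enzymes outside the complex, 8 were lower with SETD2 C, where 15.1% of all genes tested were lower and 21.1% higher. Both SETD2 C libraries lay below both KO libraries for all 12, where 30.8% of all genes did so and 40.5% lay above. VARS, the valine enzyme on chromosome 6 (31777518 to 31795752, minus strand), had the largest decrease of any member against KO. It was at 72.7 and 66.5 in KO, 65.3 and 68.4 in SETD2 FL cells and 44.6 and 44.3 in SETD2 C cells. Its level fell by 35.8% (log2 fold change -0.64, SE 0.06, adjusted p = 0.000418), and the KO and SETD2 FL values overlapped. YARS, the most abundant member, was at 262 and 251.1 in KO, 264 and 273 in SETD2 FL cells and 171 and 182 in SETD2 C cells. It fell by 31.0% against KO (adjusted p = 0.000475) and stayed the most abundant member. SARS, the serine enzyme on chromosome 1 (109213918 to 109238182, plus strand), had 235 and 231 in KO, 247 and 250.2 in SETD2 FL cells and 165 and 162 in SETD2 C cells. Its log2 fold change was -0.51 against KO (SE 0.05, adjusted p = 0.000328).

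GARS, which supplies glycine tRNA charging in both compartments, was at 137 and 122 in KO, 132 and 131 in SETD2 FL cells and 93.8 and 102 in SETD2 C cells. WARS (tryptophan) was at 85.6 and 86.8 in KO, 90.6 and 97.5 in SETD2 FL cells and 68.5 and 62.6 in SETD2 C cells. In both genes the SETD2 C values lay below all others, at log2 fold changes against KO of -0.40 and -0.39. CARS (cysteine), AARS (alanine) and FARSA, the alpha subunit of the phenylalanine enzyme, were called lower at -0.26, -0.24 and -0.22, and those 3 calls were lost without scaling. The calls of CARS and FARSA were also lost without the second SETD2 C library, at -0.22 (adjusted p = 0.0807) and -0.16 (adjusted p = 0.1325). The members not called were FARSB at -0.16, HARS at -0.12, TARS at -0.09 and NARS at -0.07. FARSA and FARSB form 1 enzyme, and the 95% confidence intervals of their changes, from -0.36 to -0.09 and from -0.31 to -0.02, overlap.

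Counted by class, 8 of the 9 class I cytosolic genes were lower (median log2 fold change -0.50), the exception being RARS. Of the 10 class II cytosolic genes, 5 were lower (median -0.19), and EPRS belongs to both classes. Without scaling the counts were 6 of 9 and 2 of 10, and the medians -0.35 and -0.05. In mitochondria the order was the other way round, with 4 of 9 class I genes lower (median -0.15) and 5 of 7 class II genes (median -0.38), and without scaling 3 of 9 (median -0.00078) and 4 of 7 (median -0.23). Of all genes tested, 15.1% were lower and 21.1% higher with scaling. Without it, 7.01% were lower and 5509 of 15933 were higher. No test of the difference between the classes was made.

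Among the 16 mitochondrial synthetases, 9 were lower with SETD2 C, where 15.1% of all genes tested were lower and 21.1% higher. MARS2, a single-exon gene on chromosome 2 (197705369 to 197708395, plus strand) for mitochondrial methionine tRNA, was at 9.00 and 9.73 scaled TPM in KO, 8.57 and 8.67 in SETD2 FL cells and 6.09 and 6.41 in SETD2 C cells. The 3 groups did not overlap, and the log2 fold change against KO was -0.55 (SE 0.08, adjusted p = 0.0026). All 3027 bases of MARS2 lie within the span of a lncRNA gene on the same strand, ENSG00000222017. Whether the 2 share exons was not checked, so reads there may not belong to MARS2 alone. LARS2, the mitochondrial leucine enzyme, had 19.3 and 18.1 in KO, 21.4 and 20.7 in SETD2 FL cells and 14.3 and 12.3 in SETD2 C cells. Here SETD2 FL was the highest group and SETD2 C the lowest (log2 fold change -0.48 against KO, adjusted p = 0.0047). FARS2, the lowest member of the second table, had 7.20 and 7.17 in KO, 7.70 and 8.0 in SETD2 FL cells and 4.65 and 5.54 in SETD2 C cells. Its SETD2 C values were the lowest, and its call (log2 fold change -0.46, adjusted p = 0.0107) was lost without the first SETD2 C library (-0.35, adjusted p = 0.0544).

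PARS2 (proline), SARS2 (serine), TARS2 (threonine) and WARS2 (tryptophan) were lower at log2 fold changes of -0.46, -0.42, -0.38 and -0.37 against KO. SARS2 shares 15360 bases with a protein-coding gene on the same strand, ENSG00000269547. Whether they share exons was not checked, so reads there may not belong to SARS2 alone. YARS2 and AARS2 were called lower at -0.33 and -0.26 and lost the call without scaling. The 7 members not called were RARS2, VARS2, CARS2, EARS2, NARS2, IARS2 and HARS2. IARS2, the most abundant of the 16, stood at 98.8 and 99.2 in KO and 96.9 and 101 with SETD2 C, a log2 fold change near 0 with a 95% confidence interval from -0.14 to 0.14.

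HARS2 was the member on the other side. It was at 27.8 and 26.1 in KO, 25.7 and 27.2 in SETD2 FL cells and 29.2 and 30.4 in SETD2 C cells, so the SETD2 C libraries were the highest. The log2 fold change against KO was 0.14 (SE 0.07, adjusted p = 0.126), not called after scaling and called higher without it. Its divergent neighbour HARS was at 52.1 and 46.9 in KO, 50.9 and 51.5 in SETD2 FL cells and 46.4 and 44.8 in SETD2 C cells (log2 fold change -0.12, adjusted p = 0.1998). Without scaling HARS was at 0.03 and HARS2 at 0.29, both positive. The ratio of HARS to HARS2 TPM, which scaling leaves as it is, was 1.87 and 1.80 in KO, 1.98 and 1.90 in SETD2 FL cells and 1.59 and 1.48 in SETD2 C cells. In GENCODE 44 the genes overlap by 108 bases, and a read there could count for either.

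**Figure D3:**
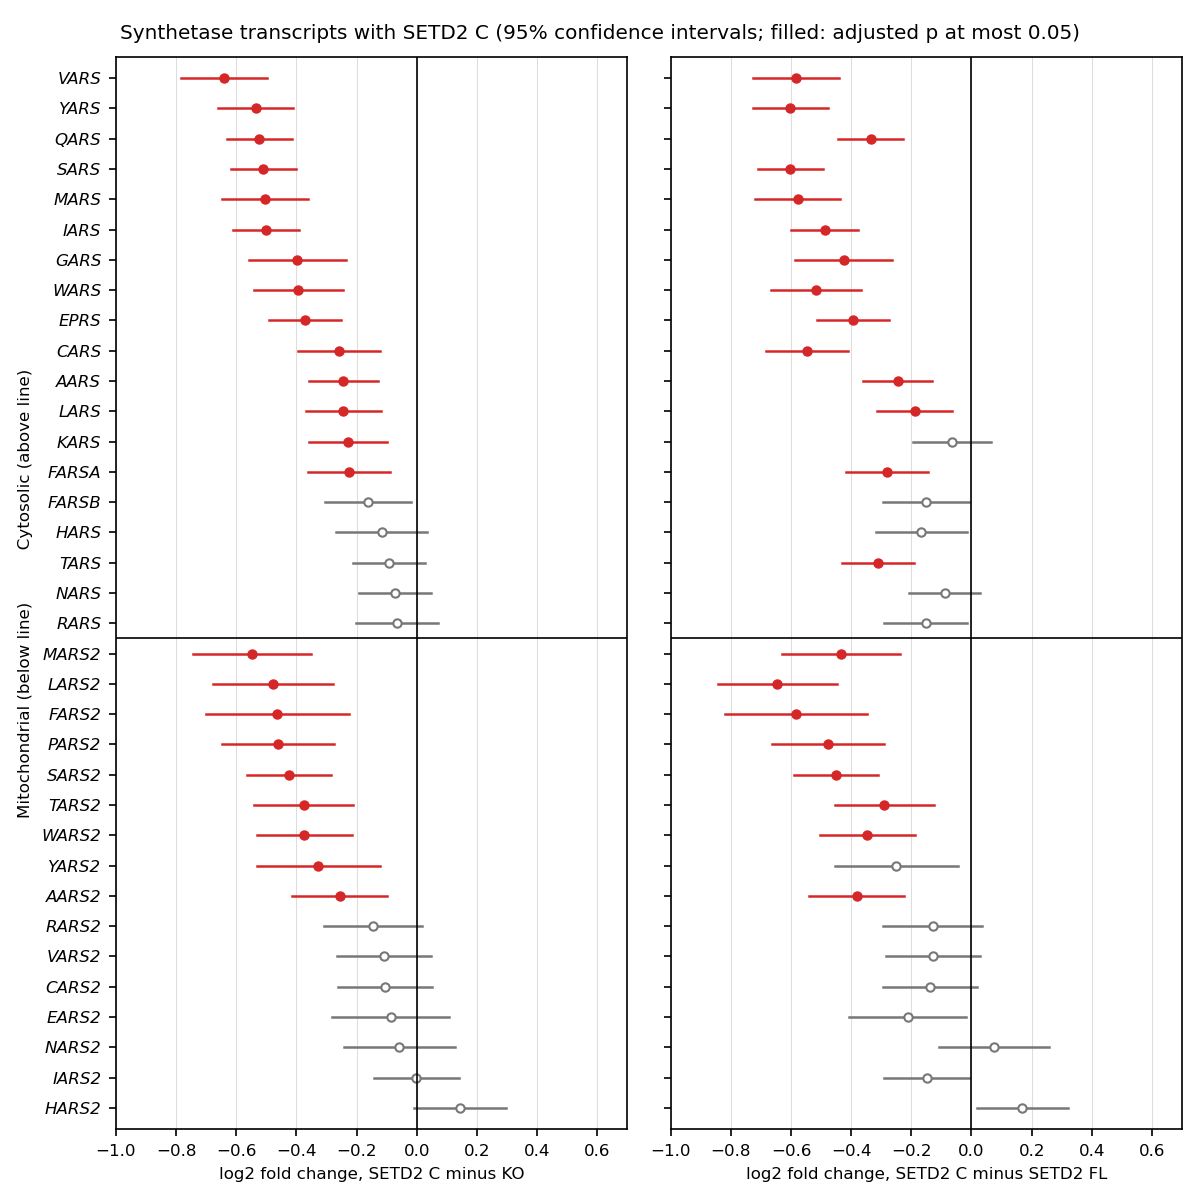
Log2 fold change of 35 synthetases with SETD2 C against KO (left) and against SETD2 FL (right), with 95% confidence intervals from limma, cytosolic genes above the line and mitochondrial genes below it. Filled red points are lower at an adjusted p of at most 0.05, 23 on the left and 22 on the right, and open points were not called.

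The comparison with SETD2 FL, which holds transfection in common, also put the synthetases lower with SETD2 C. It does not hold SETD2 TPM in common, which was higher with SETD2 C here (log2 fold change 1.46). SETD2 C spans residues 1404 to 2564 only, and TPM is corrected for transcript length. The TPM of the constructs are thus unlike measures, and whether their transcript levels differed cannot be read from them. The paper reports no significant difference between the transcripts of the constructs in its RNA-seq data. The comparison with SETD2 FL shares the SETD2 C libraries with the comparison above. Of the 36 members, 22 were lower and 0 higher (limma, Benjamini-Hochberg), 14 of 20 cytosolic and 8 of 16 mitochondrial, where 16.8% of all genes tested were lower and 21.4% higher. Protein-coding genes in the members' range were lower in 25% and higher in 17.9% of cases. The members' median log2 fold change was -0.30, against 0.04 for all genes and -0.04 for those in range. Both SETD2 C libraries lay below both SETD2 FL libraries for 33 members (32% of all genes) and above them for 2 members (40.3% of all genes), HARS2 among them. Without scaling, 18 members were lower and 2 higher, HARS2 among them, and the median was -0.17. In that setting 9.46% of all genes tested were lower and 5192 of 15933 were higher.

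The largest decreases against SETD2 FL were those of LARS2 (-0.65, SE 0.09), YARS (-0.60, SE 0.05), SARS (-0.60, SE 0.05), VARS (-0.58, SE 0.06), FARS2 (-0.58, SE 0.10) and MARS (-0.58, SE 0.06). SARS had the smallest adjusted p of the family at 0.000135. CARS was at 43.05 and 41.7 scaled TPM with SETD2 FL, 35.0 and 34.2 in KO and 29.6 and 28.1 with SETD2 C. The groups were apart from each other in that order, and CARS fell by 31.5% against SETD2 FL (adjusted p = 0.000547). TARS was at 198 and 208 with SETD2 FL, 172 and 176 in KO and 160 and 167 with SETD2 C, and was called lower against SETD2 FL (log2 fold change -0.31, adjusted p = 0.003) and not called against KO. KARS, at 150.03 and 162 with SETD2 FL and 149 with SETD2 C in both libraries, was not called against SETD2 FL (log2 fold change -0.07, 95% confidence interval -0.19 to 0.06). YARS2 was not called either (-0.25, adjusted p = 0.0572).

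The cytosolic and mitochondrial enzymes of 1 amino acid were also set against each other. Over 17 pairings of a cytosolic with a mitochondrial gene, in which EPRS and FARS2 each appear more than once, the TPM ratio was lower in both SETD2 C libraries than in both KO libraries for 7, higher for 6 and overlapping for 4. The comparisons without called members had like counts, with 6 lower, 7 higher and 4 overlapping for SETD2 FL against KO, which shares the KO libraries, and 9, 5 and 3 for KO against WT. Among the lower ones, IARS to IARS2 was at 1.28 and 1.295 in KO, 1.096 and 1.21 in SETD2 FL cells and 0.94 and 0.88 in SETD2 C cells. VARS to VARS2 went from 1.92 and 1.75 to 1.25 and 1.28. In the other direction, LARS to LARS2 was 4.84 and 5.17 in KO and 5.54 and 6.36 with SETD2 C, and FARSB to FARS2 was 3.23 and 3.18 in KO and 4.45 and 3.68 with SETD2 C. No test of the ratios was made.

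The members with TGATGNAA near their start, shown above, were set against those without it, with no test of the difference. With SETD2 C against KO, 6 of the 8 were lower with a median log2 fold change of -0.29, and of the 22 members that had a promoter entry and no match, 13 were lower with a median of -0.30. Of all genes tested, 15.1% were lower and 21.1% higher. For the 7 cytosolic genes with a match the changes ran from -0.50 in MARS and IARS to -0.07 in NARS. Of these, 5 were lower (median -0.26), as were 6 of the 9 cytosolic genes with an entry and no match (median -0.23). Against SETD2 FL, 6 of 8 were lower with a median of -0.37, and 12 of 22 were lower with a median of -0.29. Among the cytosolic genes alone these were 6 of 7 (median -0.42) and 5 of 9 (median -0.28). In that comparison 16.8% of all genes tested were lower and 21.4% higher. Promoter entries were not at hand for 6 members, among them AARS2, LARS, VARS, VARS2 and YARS.

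With SETD2 FL, no member was called in either direction by limma with Benjamini-Hochberg adjustment, where 0.176% of all genes tested were higher and 0.0314% lower, and 5 members had an unadjusted p under 0.05, as did 15.9% of all genes. The median log2 fold change was 0.02, against 0.01 for all genes, and the members ranged from -0.19 to 0.29. Both SETD2 FL libraries lay above both KO libraries for 12 members (24.8% of all genes) and below for 7 (23.4% of all genes). CARS (0.29, adjusted p = 0.123), TARS (0.22, adjusted p = 0.146) and IARS2 (0.15, adjusted p = 0.295) had positive values at an unadjusted p under 0.05, and QARS (-0.19, adjusted p = 0.156) and KARS (-0.16, adjusted p = 0.241) negative ones. At 95% confidence, the interval of CARS reached 0.43 and that of QARS -0.30.

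In the first table no synthetase differed between WT and KO at the threshold either. By limma with Benjamini-Hochberg adjustment over 14746 genes 0 members were called, where 1.32% of all genes tested were higher in the libraries labelled KO and 3.17% lower. At an unadjusted p under 0.05 there were 7 members, 6 of them with higher values in KO, and CARS with lower ones, where 24.9% of all genes had such a p. The members' median log2 fold change, KO minus WT, was 0.06, against -0.01 for all genes. Both KO libraries lay above both WT libraries for 13 members (27.4% of all genes) and below for 8 (29.4% of all genes). Without scaling the median of all genes was 0.11 and 4 of 36 members had negative values, against 14 with scaling.

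The member nearest to the threshold was EARS2, the mitochondrial glutamate enzyme, at 18.6 and 18.9 scaled TPM in WT and 22.5 and 23.3 in KO. Its groups were apart, with a log2 fold change of 0.28 (SE 0.08, adjusted p = 0.0871). HARS2 (17.9 in both WT libraries, 21.25 and 21.9 in KO) and RARS (102 in both WT libraries, 117 and 129 in KO) had log2 fold changes of 0.26 each at an adjusted p of 0.1002. MARS2 had the highest value of the family at 0.31 (4.79 and 5.37 in WT, 6.67 and 6.12 in KO, adjusted p = 0.153). The lowest were MARS at -0.19 (235 and 225 in WT, 190 and 215 in KO) and CARS at -0.18 (48.9 and 46.6 in WT, 41.6 and 42.7 in KO). Neither reached the threshold (adjusted p = 0.23 and 0.184), and without scaling their groups overlapped, at -0.06 and -0.05.

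**Figure D4:**
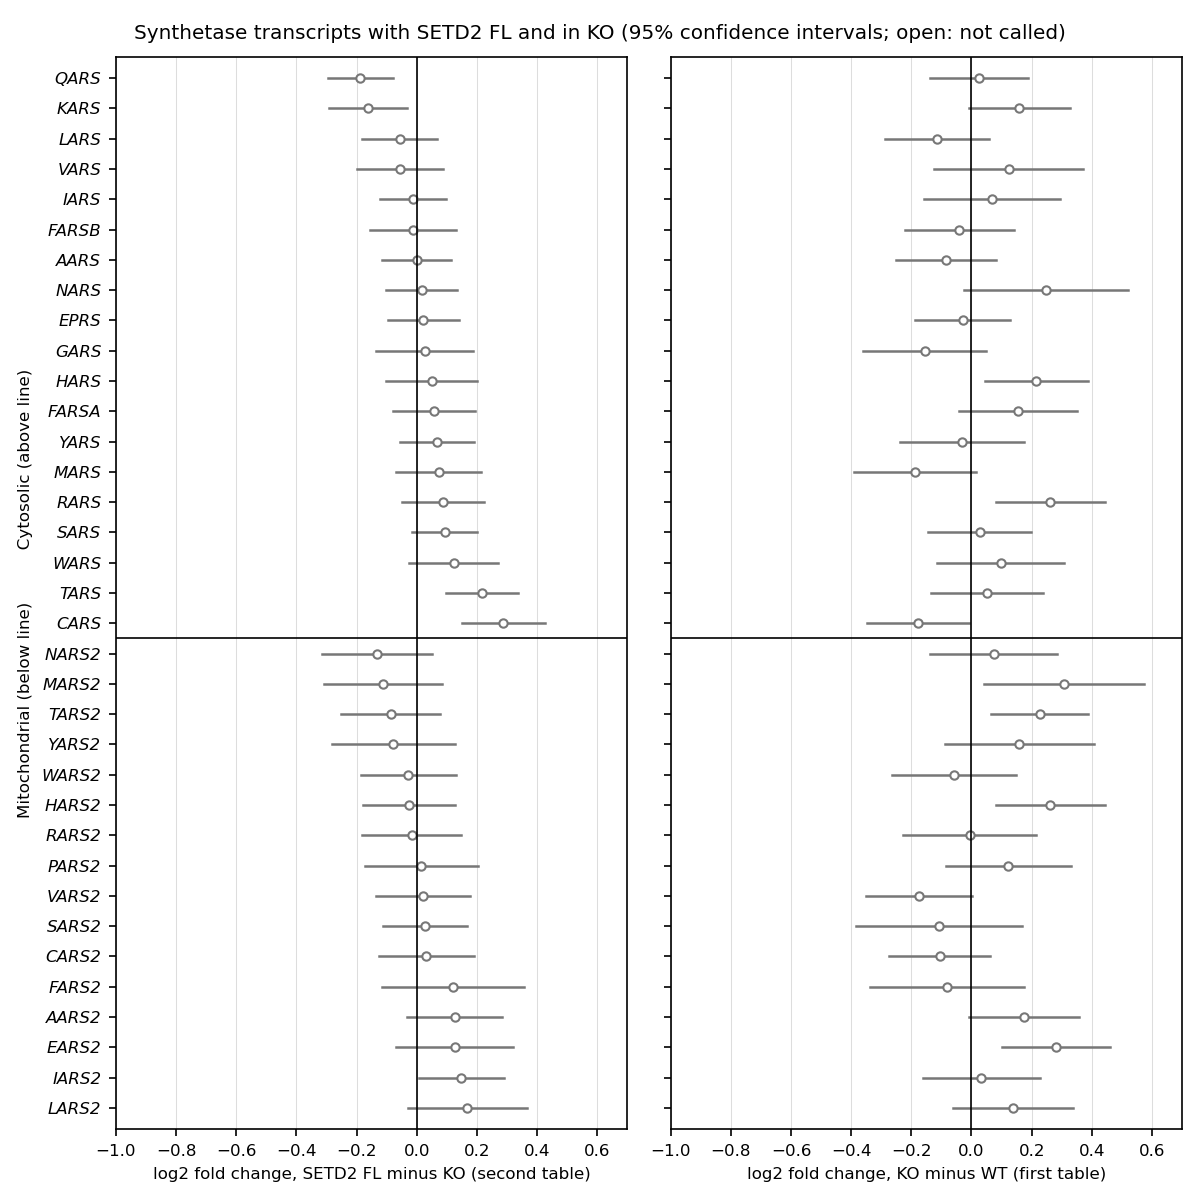
Log2 fold change of 35 synthetases with SETD2 FL against KO in the second table (left) and in KO against WT in the first table (right), with 95% confidence intervals from limma, cytosolic genes above the line and mitochondrial genes below it. All points are open, since 0 of 36 members were called in either comparison.

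Genes that work beside the synthetases were read from hand-written lists and tested in the same fit. The shares to set beside the counts against KO are those of all genes tested, 15.1% lower and 21.1% higher. For protein-coding genes in the members' range they are 22.1% and 16.4%. Without scaling, 7.01% of all genes tested were lower and 5509 of 15933 were higher. With SETD2 C against KO, the list of ATF4 and amino acid response genes (28 tested) had 17 lower and 4 higher, with a median log2 fold change of -0.36, and without scaling it had 14 lower and 6 higher. ATF4 itself, named here after its values were seen, was at 711 and 677 scaled TPM in KO and 499.7 and 505 with SETD2 C (-0.46, adjusted p = 0.000675). The largest decreases were in CHAC1, which degrades glutathione (-1.12), SLC7A11, the cystine carrier (-0.92), and PHGDH, the first enzyme of serine synthesis (-0.78). The largest increases were in DDIT4, an inhibitor of the mTORC1 kinase (1.57), ATF3, a stress-induced transcription factor (1.48), and DDIT3, which encodes CHOP (1.33).

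Downstream of charging, 5 of 7 cytosolic elongation factor genes were lower and 1 higher against KO (median -0.27), and 3 were lower without scaling. EEF1B2, part of the exchange factor for eEF1A, was at 1521 and 1633 in KO and 989.5 and 1029 with SETD2 C (-0.64, adjusted p = 0.000293). EEF1A2, the tissue-restricted form of the factor that brings charged tRNA to the ribosome, went the other way, from 122 and 125 to 239 and 252 (0.99, adjusted p = 2.95e-05). Upstream, of 18 genes for tRNA processing, CCA addition and export, 9 were lower and 2 higher (median -0.18), led by POP1 of RNase P (-0.72), and 4 were lower and 3 higher without scaling. Of 13 genes for the eIF2alpha kinases, phosphatases and eIF2B, 3 were lower (23.1%) and 2 higher. That is near the shares of protein-coding genes in the members' range, 22.1% lower and 16.4% higher. PPP1R15A, the inducible phosphatase subunit, was at 1.21. Without scaling none of that list was lower and 4 were higher.

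In mitochondria, 6 of 18 genes for tRNA charging and translation were lower and 1 higher (median -0.11), and without scaling 5 were lower and 4 higher, at a median of 0.03. With scaling, 22.1% of protein-coding genes in the members' range were lower and 16.4% higher. PUS1, a pseudouridine synthase acting on tRNAs, was at 35.4 and 34.8 in KO and 22.2 and 21.6 with SETD2 C (-0.67, adjusted p = 0.000247). QRSL1 belongs to the complex that makes glutamine-charged tRNA in mitochondria, which have no aminoacyl-tRNA synthetase of their own for glutamine. QRSL1, the catalytic subunit, was at -0.48 (adjusted p = 0.0023). TUFM, the mitochondrial elongation factor Tu, was at -0.48 (adjusted p = 0.0014). Of 5 tested genes for editing and deacylation, 2 were lower, among them PTRH2, a peptidyl-tRNA hydrolase (-0.48). The multisynthetase scaffold and the eIF2alpha, mitochondrial and editing lists had medians below 0 with scaling and above 0 without it.

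**Figure D5:**
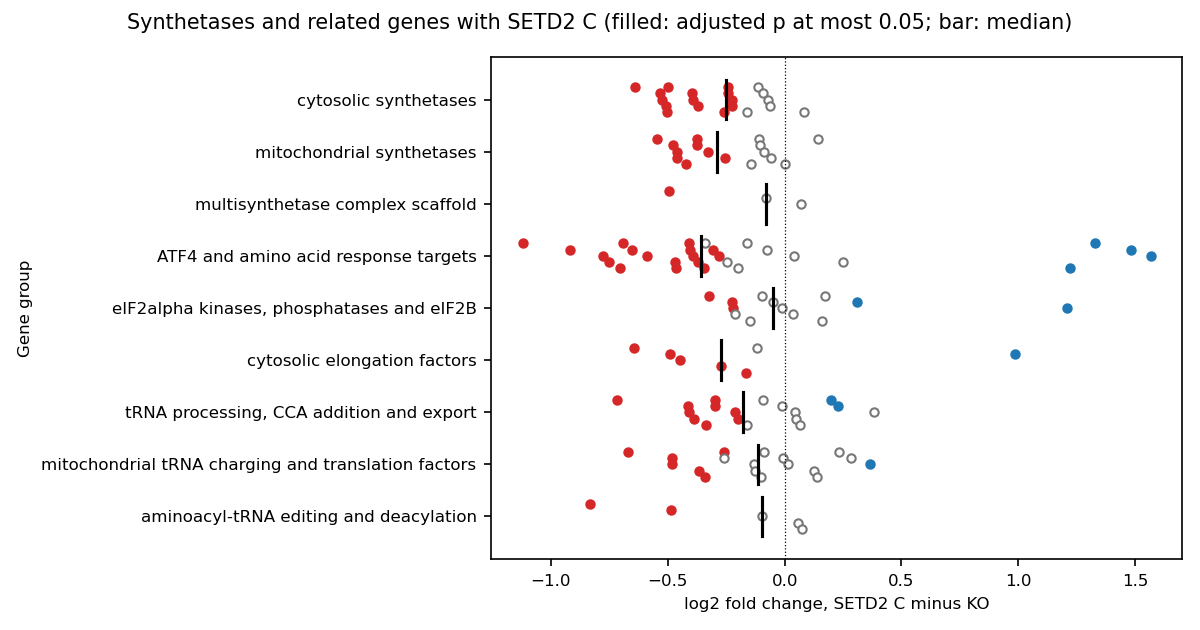
Log2 fold change with SETD2 C against KO for the cytosolic and mitochondrial synthetases and 7 lists of related genes, 1 point per gene, with the median of each list as a bar. Filled points passed an adjusted p of 0.05 (red lower, blue higher), and the 4 blue points of the amino acid response list lie beyond 1.2 on the log2 scale.

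Against SETD2 FL the same lists gave, for SETD2 C, 21 lower and 5 higher of 28 amino acid response genes (median -0.42), 2 of 3 scaffold genes lower, 3 lower and 1 higher of 7 elongation factors, 6 lower and 1 higher of 18 tRNA processing genes, 7 lower and 1 higher of 18 mitochondrial genes, 3 lower and 2 higher of 13 eIF2alpha genes, and 2 of 5 editing genes lower. Of all genes tested, 16.8% were lower and 21.4% higher in that comparison. For protein-coding genes in the members' range the shares were 25% and 17.9%. In unscaled TPM, 9.46% of all genes tested were lower and 5192 of 15933 were higher. Without scaling, 1 scaffold gene was lower and 1 higher, 6 tRNA processing genes were lower and 4 higher (median 0.02), and 6 mitochondrial genes were lower and 3 higher (median 0.04). The scaffold count was also 1 under quantile normalization, the rescaling and eBayes without trend, and without each library left out in turn. With SETD2 FL against KO, SLC3A2, the shared heavy chain of several amino acid carriers, was the single gene called in any list (135 and 142 in KO, 206 and 183 with SETD2 FL, log2 fold change 0.49, adjusted p = 0.0435). That call was lost in 7 of 13 other settings, among them each of the 4 that left out a library.

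In the first table, 9 of the 28 amino acid response genes were lower in the libraries labelled KO and 0 higher, with a median log2 fold change of -0.31. Of all genes tested, 3.17% were lower and 1.32% higher. NUPR1, a stress-induced chromatin protein, was at 12.5 and 9.39 in WT and 3.91 and 3.26 in KO (-1.48), CHAC1 was at -0.95 and DDIT4 at -0.82. That count depended on the settings, from 1 with no filter on low TPM to 13 with a replicate block, and it was 4 without the first WT library, 3 without the first KO library and 2 without the second KO library. RPP25, an RNase P subunit, was higher in KO (13.4 and 13.5 in WT, 19.1 and 18.4 in KO, log2 fold change 0.46, adjusted p = 0.0302), and no other gene of the lists was called. The RPP25 call was lost in 5 of 13 other settings, among them those without the first WT library and without either KO library.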

How the data were processed

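RNA-seq of 10 HEK293T libraries was used. Per the study's methods, the authors demultiplexed reads with bcl2fastq 2.18, aligned them to hg38 with STAR 2.6.1c and computed the deposited TPM values with RSEM 1.3.0. TPM keeps no depth, so counting error is unknown. Counts behind the authors' own edgeR analysis were not used here, and ChIP-seq samples were not analysed here.

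Libraries of a table were scaled by median ratios, taken across the genes whose TPM reached 1 in all of them (factors 0.879 to 1.07). Testing covered protein-coding genes and lncRNAs for which 2 or more libraries had a TPM of 0.5 or above. Values entered limma 3.58.1 (R 4.3.3, eBayes with trend) on the log2 scale after a pseudocount of 0.5 was added to the scaled TPM, which understates changes of low genes. Each table had 1 fit, with Benjamini-Hochberg adjustment over all genes and calls at an adjusted p of at most 0.05. The script was tested on simulated data. The alternatives tried are listed with the limits. Of the table's genes, GENCODE 44 (GRCh38) held 58472 under their identifier and another 31 under their symbol, which left 381 without a match. In it, 23 members overlap another gene, 20 of them on the opposite strand and 7 on the same strand. Strand use in counting is not given in the sources used here. It could not separate genes on the same strand, so the values of overlapping members are uncertain.

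The members and lists were chosen with earlier results of these data known, and the motifs after the values were seen. Members could be named, except that 1 member and 1 gene of the other lists are not reported here by name and the member is left out of the plots that label genes. From the other lists, up to 3 called genes with the largest change in each direction were named, and the scaffold genes always.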

Additional observations from a re-analysis of the deposited data

How the results depend on the processing

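Counts of members called were recomputed under quantile normalization, without scaling, with scaling redone after SETD2 and the genes of the mitochondrial genome were taken out (the rescaling), with pseudocounts of 0.1 and 1, a stricter and no TPM filter, eBayes without trend, a fit of only the groups compared, and each library left out. With SETD2 C, 15 of the 23 members called against KO and 18 of the 22 called against SETD2 FL were called in all 13 of these settings, and no called member changed sign. Of all genes tested, 7.01% to 18.8% were lower against KO in these settings, and 8.12% to 21.3% against SETD2 FL. Members called lower numbered 16 to 23 against KO and 18 to 23 against SETD2 FL. Leaving out a library gave 18 to 21 and 20 to 22. A required fold change of 2 left 0 in both. Members called higher were 1 against KO without scaling and with the rescaling, and 2 against SETD2 FL without scaling.

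Without scaling, the cytosolic and mitochondrial medians were 0.17 and 0.22 for KO against WT, -0.10 and -0.15 for SETD2 C against KO, and -0.19 and -0.14 for SETD2 C against SETD2 FL, and the mitochondrial one was 0.0375 for SETD2 FL against KO. With the rescaling they were 0.0883 and 0.0802 for SETD2 FL against KO, -0.16 and -0.20 for SETD2 C against KO, and -0.29 and -0.24 for SETD2 C against SETD2 FL. Quantile normalization gave -0.22 for the cytosolic members against KO, and -0.23 for both kinds against SETD2 FL.
Leaving out each library in turn, with the remaining library of its group assumed to vary like those of the other groups, gave cytosolic medians of -0.0124 to 0.0645 for KO against WT, -0.0054 to 0.0668 for SETD2 FL against KO, -0.29 to -0.24 for SETD2 C against KO and -0.35 to -0.31 for SETD2 C against SETD2 FL. The mitochondrial medians ran from 0.0375 to 0.13, -0.000629 to 0.0373, -0.34 to -0.22 and -0.32 to -0.25 in the same order. The calls against KO that 1 left-out library ended were those of AARS2, CARS, FARS2, FARSA, KARS, LARS and YARS2, and against SETD2 FL those of FARSA, LARS and TARS2.
No member was called for KO against WT or SETD2 FL against KO in any setting. With a replicate block, 0 members were called between WT and KO, and 442 genes were higher and 827 lower in place of 194 and 467. In the first table, the difference between the 2 WT libraries correlated across genes at 0.15 with that between the 2 KO libraries. With 2 libraries a group, this cannot say whether the label numbers pair them. The labels name nothing that libraries of the same number share. In the second table no paired analysis was possible because the groups compared share fewer than 2 label numbers. Without scaling, 5509 genes were higher and 1117 lower for SETD2 C against KO, in place of 3359 and 2405. TPM keeps no depth, so its limit on these values is unknown.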
